A study of Mus musculus with 8 samples.

Results

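The genes of calprotectin and of the neutrophil granules were followed in Cd11b-sorted cells of the mouse mammary gland. The list holds 10 genes: S100a8 and S100a9, Ngp, Camp, Retnlg, Elane, Mpo, G0s2, Fpr1 and Fpr2. A gene entered if the array table had a probe set annotated with that symbol and no other, and 8 of the 10 did, each through 1 probe set, among 18193 genes with such a probe set. Retnlg and Fpr1 were not analysed here. MMTV-iFGFR1 mice carry an inducible FGF receptor 1 driven by the MMTV promoter, a viral promoter used to express transgenes in the mammary epithelium. A synthetic dimerizer switches the receptor on. All mice were females of the inbred FVB background that entered the experiment at an age of 6 weeks. Transgenic mice and littermates lacking the transgene were both given the dimerizer, for 48 hours or 4 weeks, so that the control mice had the drug as well. Cells stained with a Cd11b-PE antibody were sorted after collagenase digestion, and each pool of RNA from 3 mice was run on 1 Affymetrix array. There were 2 pools in each of the 4 groups, or 8 arrays.

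Neutrophils build their granules in steps. Myeloperoxidase and elastase are made early, in bone marrow precursors, and go to the primary granules, whereas cathelicidin and the neutrophilic granule protein follow later and go to the secondary granules. S100A8 and S100A9 pair to form calprotectin, which fills the cytosol of mature neutrophils, sequesters metal ions from microbes and acts as an alarm signal for other cells. Monocytes and inflamed squamous epithelium make it as well. Formyl peptide receptors guide these cells to bacterial and mitochondrial peptides. Cd11b, the product of Itgam, stands on neutrophils, monocytes and macrophages alike, so the sort does not separate them.

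The sorted cells carried the macrophage genes at high signal. The signal, the MAS5 intensity of a probe set on a linear scale with the same trimmed mean of 500 on each array, was between 68311 and 93065 for Csf1r, the macrophage growth factor receptor, and between 9842 and 14627 for Adgre1, which encodes F4/80. The median signal of an array was between 96.4 and 126.9. Of 7 neutrophil markers, 5 were measured and Ly6g and Retnlg were not analysed here. Csf3r, the receptor for granulocyte colony stimulating factor, had signals between 198.9 and 654.5, Cxcr2 between 35.0 and 307.5, Cd177 between 4.4 and 140.5 and Mmp8 between 23.3 and 226.0. The summed signal of the 5 markers ranged at 48 hours from 5319 to 5385 in control pools and from 4676 to 4865 in transgenic pools. The 4 weeks ranges were 5882 to 6952 and 4894 to 6277, most of it from Mmp9, a gelatinase that macrophages also make. In sorted bulk RNA, fewer neutrophils among the cells and less of a transcript per cell cannot be told apart.

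A pair of arrays needs a word before the results. The description of transgenic pool 2 at 4 weeks calls its mice non-transgenic, while its title, source and genotype entry call it transgenic, and it was used as transgenic. Control pool 2 at 4 weeks had a ratio of 3' to 5' beta-actin control signal, a measure of RNA degradation and amplification, of 37.0 against 6.84 to 13.9 on the other 7 arrays. Its Itgam signal, 46.8, was the lowest of the 8 arrays. Both pools are left out in turn where a result rests on them.

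The promoters of S100a8, S100a9 and Ngp are shown because these were the members whose control and transgenic pools did not overlap at 48 hours. They are RefSeq windows of build GRCm38.p6 from 250 bases before to 50 bases after the annotated start, read 5' to 3' on the gene's strand. S100a8 lies at chr3:90668821-90669120 on the plus strand, S100a9 at chr3:90695672-90695971 on the minus strand, and Ngp at chr9:110419558-110419857 on the plus strand. Capitals mark matches, on either strand, to 3 short patterns: TATAAA (the TATA box), AGGAAG (a core bound by ETS factors such as PU.1) and TTNNGNAA (a loose form of the site of C/EBP factors). No match of 1 pattern overlapped another in these windows.
S100a8: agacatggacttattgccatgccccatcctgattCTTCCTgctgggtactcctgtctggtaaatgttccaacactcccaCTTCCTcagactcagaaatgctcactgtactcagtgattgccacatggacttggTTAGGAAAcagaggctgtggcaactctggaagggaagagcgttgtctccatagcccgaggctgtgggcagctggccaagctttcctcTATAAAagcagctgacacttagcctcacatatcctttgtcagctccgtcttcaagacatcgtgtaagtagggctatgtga
S100a9: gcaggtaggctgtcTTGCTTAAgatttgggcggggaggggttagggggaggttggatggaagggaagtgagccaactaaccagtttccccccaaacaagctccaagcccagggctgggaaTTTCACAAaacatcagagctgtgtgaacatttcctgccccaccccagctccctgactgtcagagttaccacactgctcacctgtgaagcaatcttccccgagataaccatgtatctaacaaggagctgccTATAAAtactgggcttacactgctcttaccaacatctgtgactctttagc
Ngp: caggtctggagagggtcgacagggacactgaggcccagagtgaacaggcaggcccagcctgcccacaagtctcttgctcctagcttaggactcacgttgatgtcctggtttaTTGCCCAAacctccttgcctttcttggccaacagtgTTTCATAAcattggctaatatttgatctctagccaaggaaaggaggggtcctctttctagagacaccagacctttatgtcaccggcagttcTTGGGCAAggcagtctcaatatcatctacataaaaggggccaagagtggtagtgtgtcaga

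All 10 listed genes had a RefSeq window. TATAAA was found in 4 of them, those of S100a8, S100a9, Fpr1 and Fpr2, against 13.6% of 32851 windows of the same length. In S100a8 it starts 30 bases before the annotated start, and in S100a9 at position 1, the annotated start itself. TTNNGNAA was found in 6 of the 10 windows, against 40.7% of all windows, with 3 matches in Ngp, 2 in S100a9 and 1 in S100a8. AGGAAG was found in 5 of 10, against 35.4%, among them S100a8 with 2 matches, and Camp, Elane and Mpo. A match is a string of letters and not evidence of binding. S100a8 and S100a9 are neighbours on chromosome 3 with 0 annotated genes between them, as are Fpr1 and Fpr2 on chromosome 17. Camp and Ngp, which belong to the same family of cathelin-like proteins, lie on chromosome 9 with 18 genes between them.

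Calprotectin had the clearest pattern of the members. The S100a8 signal at 48 hours was 6377 and 7909 in control pools 1 and 2 and 2779 and 3336 in transgenic pools 1 and 2. At 4 weeks it was 3172 and 11267 in the control pools and 2125 and 1431 in the transgenic pools. Every transgenic pool was below every control pool of its time, but control pool 1 at 4 weeks lay just below transgenic pool 2 at 48 hours. The control mean at 48 hours was 7143 ± 1083 and the transgenic mean 3057 ± 394 (SD, n = 2 each), a ratio of 2.34. At 4 weeks they were 7220 ± 5724 and 1778 ± 491 (SD, n = 2 each), a ratio of 4.06.

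S100a9, the partner subunit, followed the same order of groups within each time. Its signal at 48 hours was 2506 and 3041 in control pools and 1075 and 1162 in transgenic pools. The 4 weeks values were 1015 and 3328 in control pools and 757 and 499 in transgenic pools. Again no control pool was below a transgenic pool of its time, and the control pools at 4 weeks stood further apart from each other, 3.28-fold, than control pool 1 stood from transgenic pool 1, 1.34-fold. The means were 2774 ± 378 and 1119 ± 61.4 (SD, n = 2 each) at 48 hours, a ratio of 2.48, and 2171 ± 1635 and 628 ± 183 (SD, n = 2 each) at 4 weeks, a ratio of 3.46.

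**Figure D1:**
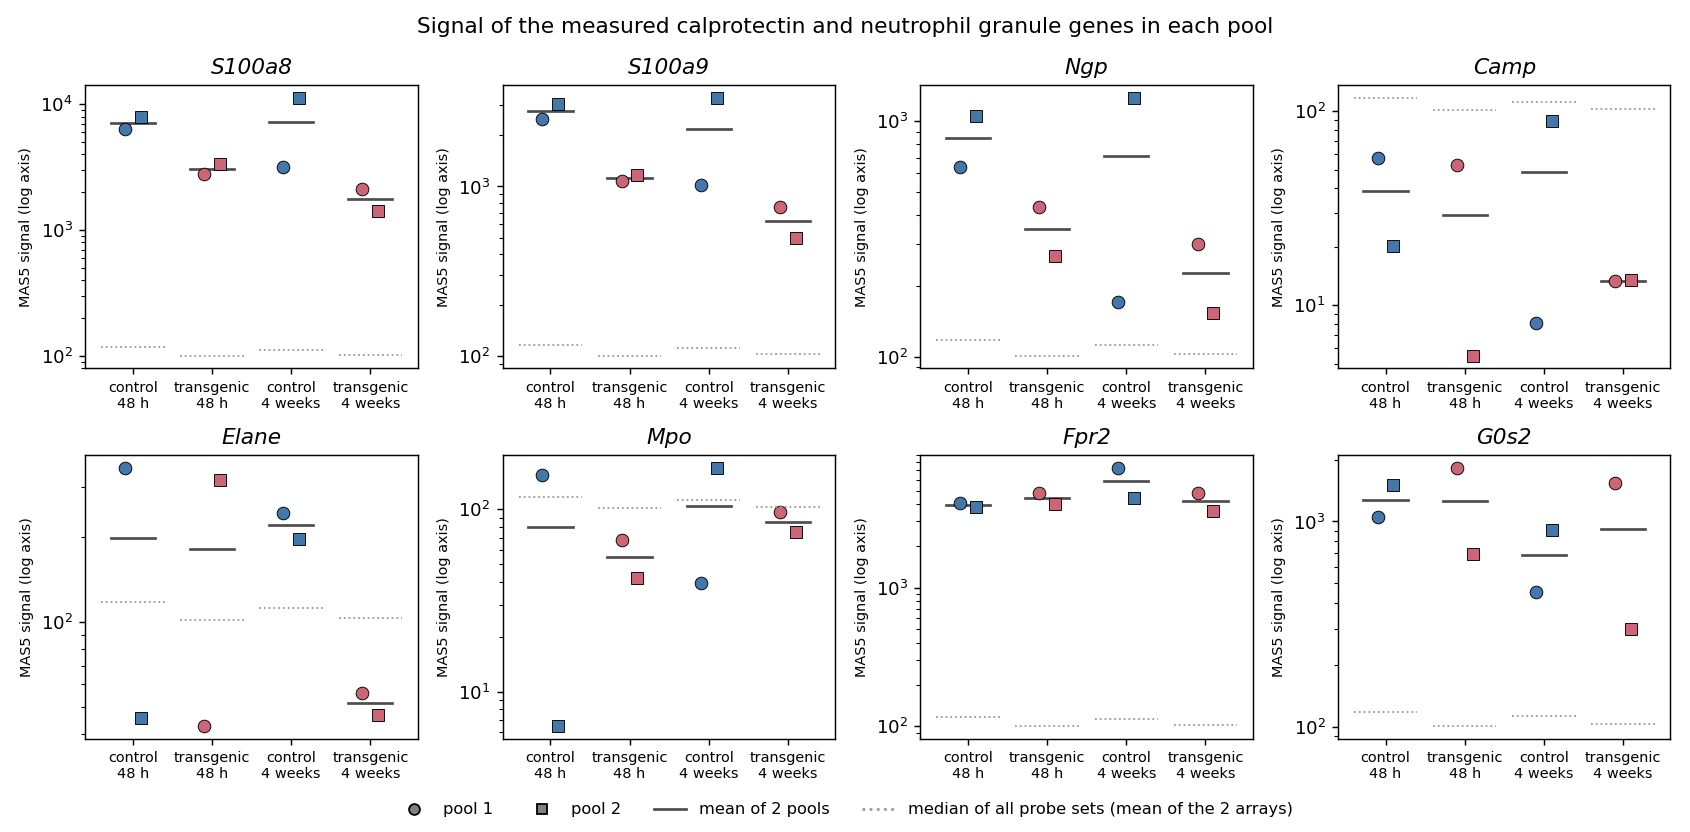
MAS5 signal (linear values on a log axis) of the 8 measured members in each pool of the 4 groups, with points for pools, bars for group means of 2 pools and dotted lines for the median of all probe sets. S100a8 and S100a9 are lower in both transgenic pools than in both control pools at each time, and control pool 2 at 4 weeks has the highest signal of S100a8, S100a9, Ngp, Camp and Mpo.

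These differences did not pass the test across all genes. Transgenic minus control, log2(signal + 30.8) of S100a8 differed by -1.21 (SE 0.47, 95% interval -2.26 to -0.16) at 48 hours and by -1.76 (SE 0.47, -2.81 to -0.71) at 4 weeks, with limma adjusted p of 0.976 and 0.893. For S100a9 the difference was -1.28 (SE 0.46, -2.30 to -0.26) and -1.54 (SE 0.46, -2.55 to -0.52), with limma adjusted p of 0.976 and 0.965. No member was called at an adjusted p under 0.05 at either time, and the percent called among 13041 genes tested was 0 at 48 hours and 0 at 4 weeks. At an unadjusted limma p under 0.05 with the transgenic pools lower, 2 of 7 members tested, S100a8 and S100a9, passed at each time, against 2.00% of all genes at 48 hours and 3.11% at 4 weeks. With the transgenic pools higher 0 of 7 passed, against 2.07% and 1.96%. In either direction 531 genes passed unadjusted at 48 hours and 662 at 4 weeks. Over both times together, a contrast added after seeing the data, the difference was -1.49 (SE 0.33) for S100a8 and -1.41 (SE 0.32) for S100a9, with a limma adjusted p of 0.959 for each. At an unadjusted limma p under 0.05 in that contrast, 3 of 7 members were lower (S100a8, S100a9 and Ngp), against 2.42% of all genes. The percent called there at an adjusted p under 0.05 was 0 as well, with 582 genes at an unadjusted p under 0.05.

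The size of the difference at 4 weeks rested on single pools. Without control pool 2 at 4 weeks, the array with the high actin ratio, the 4 weeks difference was -0.85 for S100a8 and -0.69 for S100a9. Without control pool 1 it was -2.67 and -2.38. Without transgenic pool 2 at 4 weeks, the pool with conflicting labels, it was -1.48 and -1.25. Over both times, leaving out control pool 1 at 4 weeks gave -1.94 for S100a8 and -1.83 for S100a9. That fit rested on control pool 2, with its high actin ratio, as the only control pool at 4 weeks. Leaving out control pool 2 at 4 weeks instead gave -1.03 and -0.99. The mean actin ratio was lower in transgenic pools: its log2 was 3.06 ± 0.32 in transgenic and 3.88 ± 0.95 in control pools (SD, n = 4 each), with a two-sided exact permutation p of 0.143, where 0.0286 is the smallest possible. Fitted with this ratio as covariate, the S100a8 difference was -0.82 at 48 hours and -0.88 at 4 weeks, and that of S100a9 was -0.92 and -0.74. The part of RNA quality in these differences was not tested beyond these fits.

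The calprotectin subunits moved together from array to array. Log2(signal + 30.8) of S100a8 and S100a9 correlated with r = 0.990 and Spearman's rho of 0.976 over 8 arrays, with an exact permutation p of 7.44e-05, or 0.000223 adjusted over the 3 pairs compared. The value was 0.991 without the 2 arrays farthest from the median of S100a8, control pool 2 at 4 weeks and control pool 2 at 48 hours. Deviations from the group means, which leave out the differences between groups, gave r = 0.997, so pools of 1 group that were high in S100a8 were high in S100a9 too. With 2 pools per group these deviations mirror each other, so each group adds 1 independent value. The permutation shuffled all 8 arrays without regard to group.

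**Figure D2:**
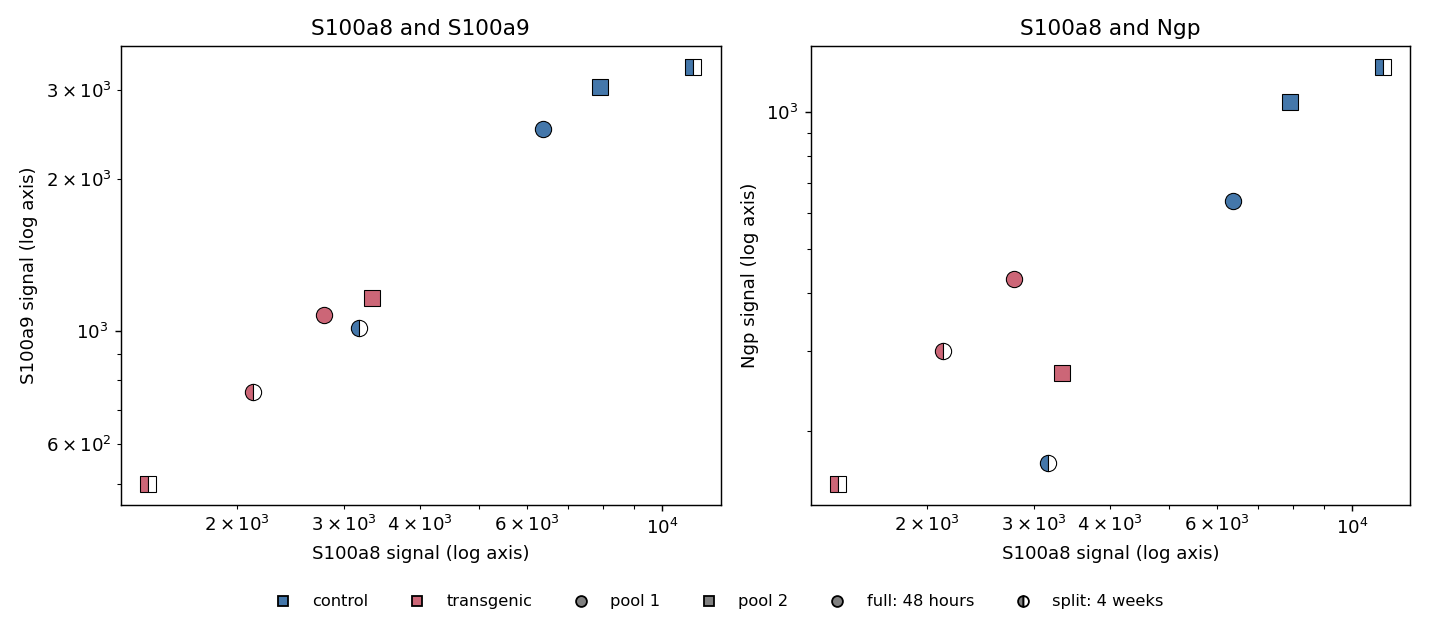
MAS5 signal (linear values on log axes) of S100a9 and of Ngp against that of S100a8 on the 8 arrays, blue for control and red for transgenic, circles for pool 1, squares for pool 2, full symbols for 48 hours and split ones for 4 weeks. S100a9 follows S100a8 closely (r = 0.990), while in Ngp control pool 1 at 4 weeks, at 170.0, is lower than 3 of the 4 transgenic pools.

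Ngp, a secondary granule protein of the cathelin family, was lower in both transgenic pools at 48 hours, as calprotectin was, but not at 4 weeks. Its signal at 48 hours was 639 and 1051 in control pools and 429.5 and 268 in transgenic pools. The 4 weeks values were 170.0 and 1254.5 in control pools and 300.0 and 153 in transgenic pools. The groups did not overlap at 48 hours, while at 4 weeks control pool 1 lay between the transgenic pools and control pool 2 was the highest of all 8. The means were 845 ± 291 and 349 ± 114 (SD, n = 2 each) at 48 hours, a control to transgenic ratio of 2.42, and 712 ± 767 and 227 ± 104 (SD, n = 2 each) at 4 weeks. The log2 difference was -1.20 (SE 0.71, limma adjusted p = 0.976) at 48 hours and -1.04 (SE 0.71, limma adjusted p = 0.986) at 4 weeks. The 4 weeks value was 0.30 without control pool 2, -2.38 without control pool 1 and -0.62 without transgenic pool 2. Adding the actin ratio to the fit gave -0.67 at 48 hours and 0.12 at 4 weeks.

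Camp, the precursor of the cathelicidin peptide CRAMP, was dim. Its signal was 57.3 and 20.1 in control pools, against 52.8 and 5.5 in transgenic pools at 48 hours, and 8.1 and 89.1 in control pools, against 13.3 and 13.5 in transgenic pools at 4 weeks. It lay below the median of its array on all 8 arrays and did not pass the filter, so it was not tested. The highest value again came from control pool 2 at 4 weeks. Over 8 arrays Ngp and Camp correlated with r = 0.731 and Spearman's rho of 0.762. The exact permutation p was 0.0467, or 0.0700 adjusted over the 3 pairs. Without the 2 arrays farthest from the median of Ngp, control pool 2 at each time, r was 0.835 with an exact permutation p of 0.0583. Without control pool 2 at 4 weeks alone, r was 0.565.

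The primary granule genes were dim and scattered within groups. Elane, which encodes neutrophil elastase, had 48 hours signals of 351 and 45.6 in control pools and 42.9 and 319 in transgenic pools. Its 4 weeks signals were 242 and 196.9 in control pools and 55.9 and 46.9 in transgenic pools. The pools at 48 hours stood 7.69-fold apart in control and 7.44-fold apart in transgenic mice, with a high and a low pool in both. At 4 weeks both control pools were above both transgenic pools, with a ratio of means of 4.27 and ratios of 4.33 and 4.20 between pools of the same number. Its log2 difference was -0.09 (SE 0.83, limma adjusted p = 0.994) at 48 hours and -1.60 (SE 0.83, limma adjusted p = 0.981) at 4 weeks. The difference between these was -1.51 (SE 1.18, limma adjusted p = 0.988). It was -2.67 without control pool 1 and -2.64 without transgenic pool 1 at 48 hours, and -0.35 and -0.39 without pool 2 of the same groups. The 48 hours value itself was 1.07 without control pool 1, 1.04 without transgenic pool 1, -1.25 without control pool 2 and -1.21 without transgenic pool 2. Elane was above the array's median on 4 of 8 arrays, and both transgenic pools at 4 weeks were below it.

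Mpo, which encodes myeloperoxidase, gave 154 and 6.5 in control pools, against 67.7 and 41.8 in transgenic pools at 48 hours. Its 4 weeks signals were 39.6 and 169 in control pools, against 96.3 and 74.9 in transgenic pools. The control pools enclosed the transgenic pools at both times. The log2 difference was 0.03 (SE 0.83) at 48 hours and -0.03 (SE 0.83) at 4 weeks, with limma adjusted p of 0.998 and 0.997, and its sign depended on the offset and on single pools. Mpo was above the array's median on 2 arrays only, 1 control pool at each time, which is also how it passed the filter. Elane and Mpo, though stored in the same granule, correlated with r = 0.314 and rho of 0.286 over 8 arrays (exact permutation p = 0.445).

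Fpr2, a formyl peptide receptor also found on monocytes and macrophages, did not follow calprotectin. Its signal was 4042 and 3834 in control pools, against 4841.5 and 4010.1 in transgenic pools at 48 hours. At 4 weeks it was 7294 and 4415 in control pools, against 4804 and 3564 in transgenic pools. The groups overlapped at both times and the highest signal was 2.05-fold the lowest, the smallest spread of the 8 members. The log2 difference was 0.16 (SE 0.27, 95% interval -0.44 to 0.77, limma adjusted p = 0.981) at 48 hours and -0.45 (SE 0.27, -1.06 to 0.15, limma adjusted p = 0.986) at 4 weeks. The 4 weeks value was -0.09 without control pool 1, -0.81 without control pool 2 and -0.24 without transgenic pool 2.

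G0s2, which encodes an inhibitor of the triglyceride lipase ATGL and is abundant in neutrophils and in fat cells, differed more between pools than between genotypes. Its signal at 48 hours was 1049.5 and 1498.5 in control pools, against 1824 and 691 in transgenic pools. Its 4 weeks signals were 455 and 911 in control pools, against 1541 and 298 in transgenic pools. At each time transgenic pool 1 was the highest and transgenic pool 2 the lowest of the 4 arrays. Between pools of the same number the log2 difference was 0.78 and 1.69 in pool 1 and -1.08 and -1.52 in pool 2, at 48 hours and 4 weeks. The fitted difference was -0.15 (SE 0.67) and 0.09 (SE 0.67), with limma adjusted p of 0.990 and 0.995. Adipoq, the marker of fat cells in the list used that is most particular to them among those tested, had signals of 87.6 and 69.5 in control pools, against 111.5 and 240.6 in transgenic pools at 48 hours. At 4 weeks its signals were 172.3 and 673.7, against 216.6 and 105.6. The summed adipocyte list, 39717 to 61817 over all pools, was mostly Lpl and Fabp4, which macrophages also make. The part of fat cells in the G0s2 signal was not tested.

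**Figure D3:**
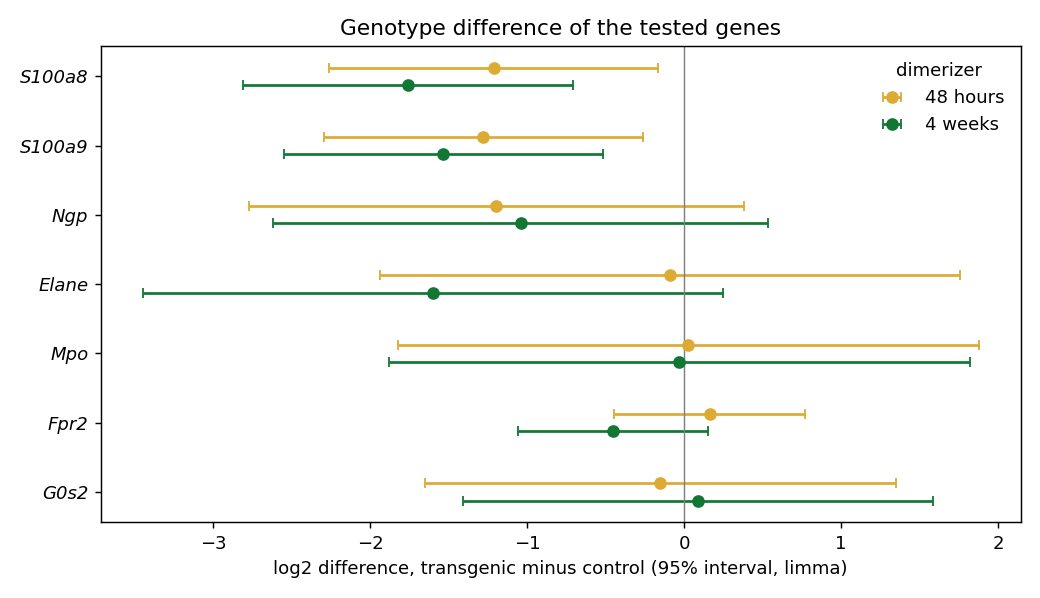
Transgenic minus control difference in log2(signal + 30.8) of the 7 members tested, at 48 hours and at 4 weeks, with points for the fitted values and bars for 95% intervals. The intervals of S100a8 and S100a9 lie below 0 at both times, and those of Ngp, Elane, Mpo, G0s2 and Fpr2 include 0.

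More of the members tested were lower than higher in the transgenic pools, and none passed the test. They were chosen with earlier results of these data known, and S100a8 and S100a9 moved together (r = 0.990), so these counts are a description. At 48 hours 5 of the 7 tested had a difference below 0, against 46.0% of all genes, and the median was -0.15 against 0.04. At 4 weeks it was 6 of 7 against 52.0%, with a median of -1.04 against -0.02. Some of these differences were near 0: Elane (-0.09) and G0s2 (-0.15) at 48 hours and Mpo (-0.03) at 4 weeks. That of Ngp at 4 weeks turned to 0.30 without control pool 2. Transgenic pools were below control pools with no overlap for 3 members at 48 hours (S100a8, S100a9 and Ngp), where 16.1% of all genes had that order. At 4 weeks this held for S100a8, S100a9 and Elane, against 17.2%, and at both times for S100a8 and S100a9, against 2.76%. The opposite order was found for 0 members at 48 hours and 0 at 4 weeks, against 18.9% and 14.7% of all genes. Of the 5 neutrophil markers measured, 5 had a difference below 0 at 48 hours, against 46.0% of all genes, with a median of -0.68. At 4 weeks it was 4 of 5, against 52.0%, with a median of -0.17 and Cd177 above 0 (1.12). The number called was 0 at both times. Granulocyte precursor markers, a list that holds Elane and Mpo, gave sums of 460 to 1248 in control and 599 to 936 in transgenic pools at 48 hours and of 598 to 1293 and 348 to 553 at 4 weeks. Squamous epithelium markers, of cells that can also make calprotectin, gave sums of 358.5 to 799.8 and 367 to 659.7 at 48 hours and of 616 to 1313 and 470.4 to 699 at 4 weeks. Monocyte markers, 4 of 7 measured, summed at 48 hours to 52623.5 to 57254.6 in control and 54609.4 to 59639 in transgenic pools. Their 4 weeks sums were 46201.1 to 84792.5 and 45809.6 to 55330.9, most of it from F13a1. Luminal epithelium markers stood apart between genotypes at 48 hours: the 6 of 6 measured summed to 1820 to 1863.5 in control pools and 5492 to 6753 in transgenic pools. At an unadjusted limma p under 0.05, 4 of 6 (Krt8, Krt18, Krt19 and Epcam) were higher, against 2.07% of all genes. None passed an adjusted p of 0.05, and the median over the list was 1.63. Cldn3 (-1.50) and Cldn4 (-0.81) of that list had differences below 0 at 48 hours. The 4 weeks sums of the luminal list were 4822 to 7451 in control pools and 2820.3 to 5611 in transgenic pools. The part of these cell types in the members' signals was not tested.

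A difference in the genotype effect between the times did not pass the test for any member. The 4 weeks minus 48 hours difference of the genotype differences was -0.55 (SE 0.67) for S100a8, -0.25 (SE 0.65) for S100a9, 0.16 (SE 1.00) for Ngp and -0.61 (SE 0.39) for Fpr2, with limma adjusted p from 0.988 to 0.996. The percent called in this comparison was 0, with 0 of 7 members and 618 genes at an unadjusted limma p under 0.05.

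Between the times, the calprotectin genes were lower at 4 weeks in both transgenic pools. The log2 difference of 4 weeks minus 48 hours in transgenic pools was -0.79 (SE 0.47) for S100a8 and -0.83 (SE 0.46) for S100a9, with a limma adjusted p of 1.00 each. Without transgenic pool 2 at 4 weeks, the pool with conflicting labels, this difference was -0.51 for S100a8 and -0.54 for S100a9. Among control pools, the 4 weeks pools lay on both sides of the 48 hours pools. The log2 difference there was -0.25 (SE 0.47) and -0.57 (SE 0.46), with limma adjusted p of 0.965 and 0.907. These values turned to 0.66 and 0.27 without control pool 1 at 4 weeks, and were -1.15 and -1.42 without control pool 2. No member was called in either time comparison, where the percent called was 0.00767 in control pools, a single gene, F5 (coagulation factor V), and 0 in transgenic pools. At an unadjusted limma p under 0.05 there were 803 and 286 genes. S100a8 and S100a9 were the members with both transgenic pools lower at 4 weeks than at 48 hours, against 14.5% of all genes, and Mpo the one with both higher, against 14.1%. In control pools G0s2 was lower at 4 weeks in both pools (-0.93, SE 0.67, limma adjusted p = 0.883), as were 13.8% of all genes. Fpr2 was higher at 4 weeks in both control pools (0.52, SE 0.27, limma adjusted p = 0.842), as were 18.0% of all genes. Without control pool 1 at 4 weeks these differences were -0.45 for G0s2 and 0.16 for Fpr2, and without control pool 2 at 4 weeks -1.40 and 0.88. The time and genotype comparisons share arrays.

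Among the other members, Ngp came closest to calprotectin across arrays. Pearson's r with the mean log2 value of S100a8 and S100a9 over 8 arrays was 0.916 for Ngp, 0.625 for Camp, 0.406 for G0s2, 0.368 for Elane, 0.08 for Mpo and -0.12 for Fpr2. A higher r than that of Ngp was found for 0.130% of 13034 genes that are no member. The highest were Tarbp2 (0.961), Ang4 (0.960), 4930573G07Rik (0.958), Aunip (0.942) and Slc25a31 (0.941). Their signals were low, with a highest value of 296.0 for Tarbp2 and 277.4 for Ang4, both on control pool 2 at 4 weeks. With 8 arrays that share this outlying pool these values are a description.

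Other neutrophil genes did not shift as one. Some of them were very bright in these cells, such as Anxa1 (27754 to 37857) and Itgb2 (11741 to 14912), unlike Csf3r (198.9 to 654.5). The part of macrophages in the signals of this list was not tested. Of 46 listed, which were chosen with earlier results of these data known, 37 had a probe set of their own and 33 were tested, and 0 passed limma's adjusted p of 0.05 at 48 hours or at 4 weeks. At 48 hours 26 of 33 had a difference below 0, against 46.0% of all genes, with a median of -0.31 against 0.04 for all genes. At 4 weeks it was 21 of 33, against 52.0%, with a median of -0.16 against -0.02. Transgenic pools were lower without overlap for 11 genes at 48 hours, against 16.1% of all genes, led by Mmp8 (neutrophil collagenase, -1.20), Hdc (histidine decarboxylase, which makes histamine, -1.08), Wfdc21 (-1.05) and Slpi (an inhibitor of leukocyte proteases, -0.78). They were higher for 3 genes, against 18.9% of all genes: the iron-sequestering secondary granule proteins Lcn2 (1.49) and Ltf (1.19), which mammary epithelium also makes, and the elastase inhibitor Serpinb1a (1.00). Of the luminal epithelium markers, Krt8 (2.21), Krt18 (1.26), Krt19 (1.99) and Epcam (2.38) were higher in the same pools. Cldn3 (-1.50) and Cldn4 (-0.81) of that list had differences below 0. The part of luminal cells in the Ltf and Lcn2 signals was not tested.

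At 4 weeks transgenic pools were lower without overlap for 5 of the 33 other neutrophil genes, against 17.2% of all genes, a share close to the background. They were led by Hp (haptoglobin, -1.46), Chil3 (the chitinase-like protein Ym1, -1.43), Ltf (lactoferrin, -1.35) and Olfm4 (a secondary granule glycoprotein, -1.09). Hp signals were 418.4 and 983.3 in control pools 1 and 2, against 309.3 and 145.4 in transgenic pools 1 and 2. The wider gap was between the pools numbered 2, those with the high actin ratio and the conflicting labels. The Olfm4 signals, 50.6 and 64.2 against 9.4 and 11.6, were all below the median of their arrays. Transgenic pools were higher for 5, against 14.7% of all genes, again close to the background. Leading these were Ltb4r1 (the leukotriene B4 receptor, 1.14), the neutrophil surface protein Cd177 (1.12), the granule protein Pglyrp1 (1.05) and Anxa1 (annexin A1, 0.28). The Cd177 signals were 4.4 and 89.4 in control pools, against 92.1 and 132.2 in transgenic pools. Ltf thus stood on opposite sides at the 2 times (the limma adjusted p of this difference was 0.349), with means of 304 ± 38.5 in control and 743 ± 174 in transgenic pools at 48 hours and of 1032.5 ± 22.5 and 387 ± 28.8 at 4 weeks (SD, n = 2 each). The luminal keratin Krt19 had the same order of group means, 212 ± 32.4 in control and 933 ± 22.0 in transgenic pools at 48 hours and 1174 ± 619 and 533 ± 314 at 4 weeks (SD, n = 2 each). Krt18 shared this order, while Krt8, Epcam, Cldn3 and Cldn4 did not. At 4 weeks 3 of the 6 luminal markers had a genotype difference below 0 and 3 above, from -1.11 for Krt19 to 0.23 for Epcam.

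**Figure D4:**
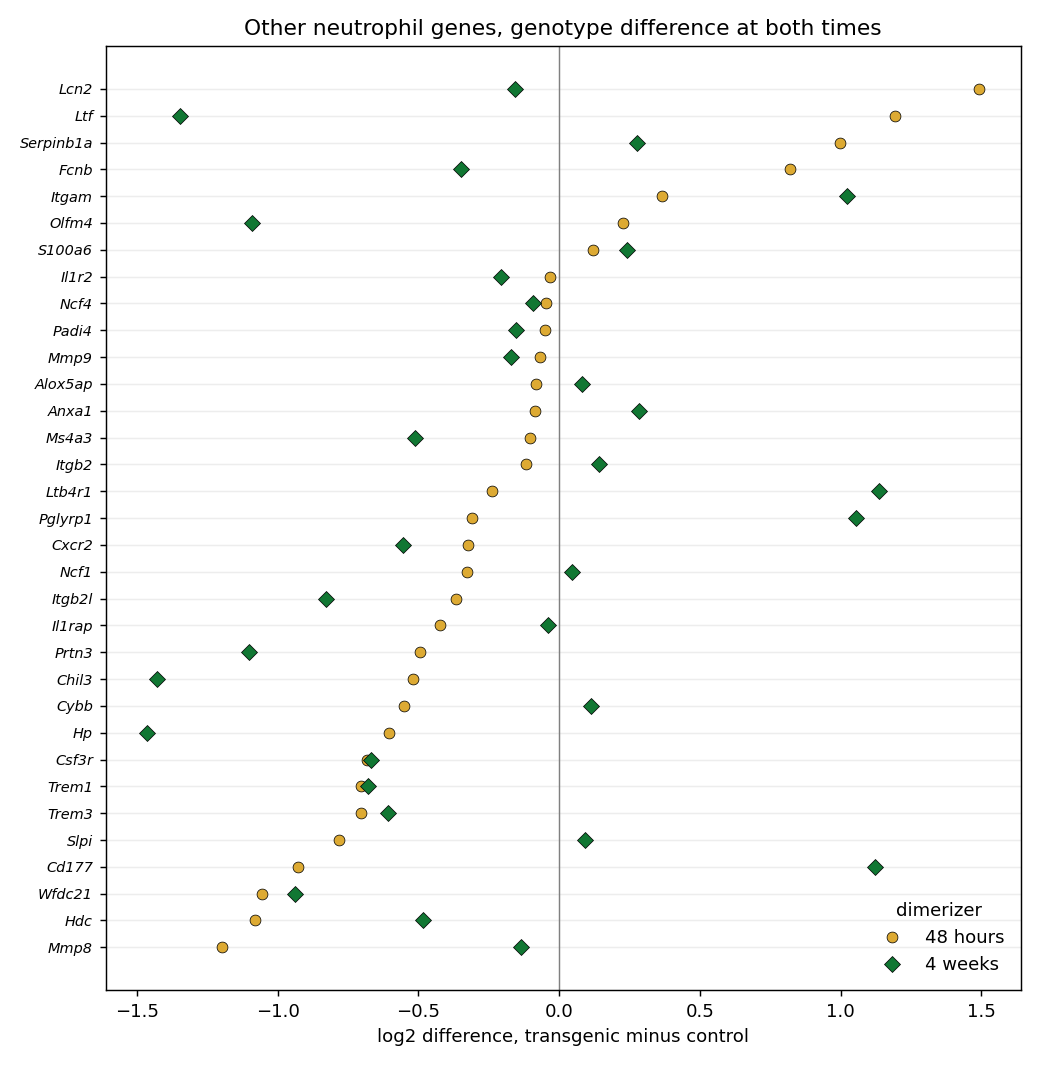
Transgenic minus control difference in log2(signal + 30.8) of the other neutrophil genes at 48 hours and at 4 weeks, with 1 point per gene and time. Of 33 genes tested, 26 lie below 0 at 48 hours, against 46.0% of all genes, and 21 at 4 weeks, against 52.0%. Ltf lies above 0 at 48 hours (1.19) and below it at 4 weeks (-1.35).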

How the data were processed

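RNA of Cd11b-sorted mammary cells was amplified in 2 cycles and hybridised to 8 arrays. The deposited values are linear signal intensities per probe set, which the authors made with MAS5 per the submitters' processing notes, with no version given. Each array's mean without the lowest and highest 2% of values was 500. Of 45101 probe sets, 64 were controls, 34945 carried 1 symbol, 932 several and 9160 none. Per gene, the probe set with the highest mean signal was used. Log2(signal + 30.8), the 25th percentile as offset, was fitted for genes above their array's median on at least 2 arrays, 13041 in all. The offset makes differences of dim genes smaller than their signal ratios. limma 3.58.1 in R 4.3.3 fitted the 4 group means with a trended prior (4 residual and a median of 6.21 prior degrees of freedom). P-values were two-sided and Benjamini-Hochberg adjusted over all genes. Simulated data of the 48 hours contrast (200 changed genes of 13041, 10 runs) returned 7% of the genes changed 2-fold and 51.2% of those changed 4-fold. The shares were 68.6% at 8-fold and 84.6% at 16-fold, beside 4.9 false calls per run. The simulation drew independent normal noise, held no outlying array and planted many strong changes, which ease the adjustment. These shares may thus be too high for the real arrays. Pools are separate samples by their labels, of separate mice as far as these say, and depth is not counted on arrays, so the number of arrays limits the precision. Named genes were all members, up to 4 other neutrophil genes per direction and contrast with groups that do not overlap, and the 5 genes most like calprotectin. Members and lists were chosen with earlier results of these data known. Python 3.11.15 and matplotlib 3.10.9 were used for figures.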

Additional observations from a re-analysis of the deposited data

Results flagged for a closer look

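Ltf, the lactoferrin gene of the secondary granules, was higher in both transgenic pools than in both control pools at 48 hours and lower in both at 4 weeks. Its log2 difference at 4 weeks minus that at 48 hours was -2.54 (SE 0.40), with an adjusted p of 0.349 in limma over 13041 genes, so this change of direction did not pass the test. Ltf is also made by mammary epithelium, and the same quantity was below 0 for 4 of 6 luminal epithelium markers. It was -2.80 for Krt8, -1.80 for Krt18, -3.11 for Krt19 and -2.15 for Epcam. Each was at an unadjusted limma p under 0.05, as were 336 of 13041 genes in that direction, and none at an adjusted one. The quantity was 1.52 for Cldn3 and 0.89 for Cldn4. Their part in the Ltf signal was not tested. No member had opposite directions without overlap at the 2 times. Groups of 2 pools are too small for a test of outlying samples.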

How the results depend on the processing

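No member passed an adjusted p of 0.05 in any contrast under any alternative (quantile normalization, other offsets, filters and probe set rules, no trend, array weights, actin ratio as covariate, arrays of the comparison alone, pool block, a threshold of 0.1) except where control pool 1 at 4 weeks was left out of the contrast over both times. The counts of genes called were 0 in the genotype contrasts except 1 at each time with the compared arrays alone and 2 at 4 weeks with the pool number as a replicate block. The 1 gene called between times in control pools became 7 with the actin ratio, 4 with the block, 2 at an adjusted p of 0.1, and 0 with array weights, the 75th percentile filter, no trend or the compared arrays alone. Same-numbered pools correlated in their deviations from group means at -0.085 to 0.133, so the numbers were not taken to pair the pools. Leaving out 1 pool gave 0 to 7 genes in that contrast, 0 to 3 genes and 0 to 2 members over both times, and 0 to 1 gene in the other contrasts.

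Adding the actin ratio to the fit turned the sign for Fpr2 at 48 hours (-0.0034), Ngp at 4 weeks (0.12), Mpo at 4 weeks (0.44) and over both times (0.34), G0s2 over both times (0.17) and S100a9 in the difference of differences (0.18). Mpo turned to -0.095 at 48 hours with the offset at the median, to 0.043 and 0.10 with quantile normalization and to 0.056 and 0.40 with no offset at 4 weeks and over both times. The cause was not tested.

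Leaving out 1 pool gave -1.37 to -1.06 for S100a8 and -1.42 to -1.14 for S100a9 at 48 hours, -2.67 to -0.85 and -2.38 to -0.69 at 4 weeks, and -1.94 to -1.03 and -1.83 to -0.99 over both times. It gave -2.38 to 0.30 for Ngp at 4 weeks, -1.25 to 1.07 for Elane at 48 hours and -2.67 to -0.35 in its difference of differences, and for Fpr2 -0.81 to -0.09 at 4 weeks, -0.33 to 0.034 over both times and -0.97 to -0.25 in the difference of differences. For Mpo it gave -1.13 to 1.18, -0.78 to 0.72 and -0.58 to 0.57, and for G0s2 -0.83 to 0.53, -1.04 to 1.22 and -0.60 to 0.53, at 48 hours, at 4 weeks and over both times. Between times in control pools it gave -1.15 to 0.66 for S100a8 and -1.42 to 0.27 for S100a9, and in the difference of differences -1.46 to 0.36 and -1.10 to 0.59. The Ngp and Camp correlation was 0.835 without the 2 farthest arrays, with an exact permutation p above 0.05 on 6 arrays. It was 0.565 without control pool 2 at 4 weeks alone. The lone pool of a group was assumed to vary like the others.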
